A study of Mus musculus with 6 samples.

Results

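Prox1, Lyve1, Pdpn, Flt4, Mmrn1, Ccl21a and Reln, 7 genes widely used to mark lymphatic endothelium, were followed in RNA from sorted kidney endothelial cells (ECs). They were taken from the deposited count table by gene name, and all 7 were among its 55401 genes, of which 38324 had at least 1 count in some library. The series addressed what loss of the canonical Notch effector Rbpj from adult endothelium does to the kidney. CD31+ CD45- cells were sorted from the kidneys of 6 male mice, the Cre-negative ones being littermates of the others, giving 3 CTRL and 3 RbpjΔEC libraries (written RbpjDEC in the labels), 1 library per mouse, sequenced in a common run. CTRL mice had the genotype Cre -/-; Rbpjf/f and RbpjΔEC mice Cre +/-; Rbpjf/f, on the Cdh5(PAC)-cre/ERT2 line, so both groups carried the floxed Rbpj allele and only RbpjΔEC mice carried Cre. Both groups received 5 intraperitoneal injections of 1.5 mg tamoxifen at 8 weeks of age and were taken 12 weeks after induction, and the labels give their age as 21 weeks. The Cdh5 promoter drives Cre in blood and lymphatic ECs alike, so the model does not separate them. The sort gate did not separate them either, since CD31 is on both.

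Libraries held 39649171 to 47726850 counts. CTRL 1 had counts on 33764 genes and the other 5 libraries on 25629 to 26785. Rbpj itself stood at 29.2 ± 0.963 CPM in CTRL and 28.2 ± 1.86 CPM in RbpjΔEC (SD, n = 3), CPM being counts per 1000000 of the TMM-scaled library size. This is a count over the whole gene that includes exons outside the floxed part, so it does not check the labels. The Notch target Hey1 stood at 19.7 ± 2.93 and 11.6 ± 2.83 CPM (edgeR quasi-likelihood test, Benjamini-Hochberg adjusted p = 0.0722), and all 3 RbpjΔEC libraries were below all 3 CTRL libraries.

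Lymphatic ECs line the vessels that drain fluid and immune cells from tissue. Their identity is set and held by the transcription factor PROX1, and their growth depends on FLT4 (VEGFR3), the receptor for VEGFC. Lymphatic capillaries carry LYVE1, a hyaluronan receptor, and PDPN (podoplanin), a membrane mucin, and they release CCL21, the chemokine that draws CCR7-bearing dendritic cells and T cells into the vessel. MMRN1 (multimerin 1) and RELN (reelin) are large secreted proteins made by lymphatic ECs. Most of the markers are not private to this cell type: FLT4 and PROX1 are also found in some kidney blood ECs, LYVE1 in some macrophages, PDPN in podocytes, mesothelium and reticular stroma, MMRN1 in platelets, and CCL21 in reticular stroma of lymphoid tissue. These are examples and not a full list of sources, and none is given here for RELN. In bulk RNA of this kind, fewer lymphatic cells in the sort and less RNA of these genes per lymphatic cell cannot be told apart.

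RBPJ binds DNA that holds the letters TGGGAA, so promoter windows are shown for the 3 members that hold them and for Ccl21a, the member with the most negative fold change, which does not. Each window is 300 bases of RefSeq sequence around an annotated start (build GRCm38.p6), written 5′ to 3′ along the gene's strand, in lower case with TGGGAA or its reverse complement TTCCCA in capitals. The Mmrn1 window is chr6:60944067-60944366 on the plus strand, the Reln window chr5:22344656-22344955 on the minus strand, the second Prox1 window chr1:190169466-190169765 on the minus strand, and the Ccl21a window chr4:42773942-42774241 on the minus strand.
Mmrn1: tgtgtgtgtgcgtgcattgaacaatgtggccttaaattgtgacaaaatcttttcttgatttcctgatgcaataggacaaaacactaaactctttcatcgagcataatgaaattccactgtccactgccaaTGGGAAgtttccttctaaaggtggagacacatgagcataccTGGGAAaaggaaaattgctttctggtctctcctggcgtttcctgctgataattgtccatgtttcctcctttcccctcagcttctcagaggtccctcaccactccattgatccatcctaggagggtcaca
Reln: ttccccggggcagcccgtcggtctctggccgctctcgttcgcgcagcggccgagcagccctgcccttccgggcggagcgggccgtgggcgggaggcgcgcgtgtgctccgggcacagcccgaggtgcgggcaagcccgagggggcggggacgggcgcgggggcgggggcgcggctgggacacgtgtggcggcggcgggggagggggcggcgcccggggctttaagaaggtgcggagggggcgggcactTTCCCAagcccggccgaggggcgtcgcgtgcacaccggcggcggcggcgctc
Prox1: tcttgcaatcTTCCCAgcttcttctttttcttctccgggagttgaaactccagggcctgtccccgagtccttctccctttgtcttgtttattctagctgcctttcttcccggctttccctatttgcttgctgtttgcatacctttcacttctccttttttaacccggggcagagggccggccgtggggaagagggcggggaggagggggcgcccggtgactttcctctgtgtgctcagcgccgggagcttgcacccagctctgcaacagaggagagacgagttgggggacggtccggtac
Ccl21a: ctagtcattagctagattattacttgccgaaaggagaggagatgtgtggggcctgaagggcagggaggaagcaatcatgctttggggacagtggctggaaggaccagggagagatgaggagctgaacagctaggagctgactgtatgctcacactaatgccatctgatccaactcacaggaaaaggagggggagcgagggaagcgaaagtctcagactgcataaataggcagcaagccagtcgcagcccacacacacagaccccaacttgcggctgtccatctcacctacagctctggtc
The letters began at positions -120 and -79 relative to the start in Mmrn1, at -2 in Reln and at -240 in Prox1. RefSeq entries matched 6 of the 7 members, with 2 windows for Prox1 and none for Lyve1. On either strand, TGGGAA stood in 3 of these 7 windows and in 25.6% of all 32851 promoter windows. AACAAT, a core that SOX factors bind, stood in 1 of the 7 windows, that of Mmrn1, apart from the TGGGAA matches, and in 10.7% of all windows. These letters describe the windows and do not show binding.

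Per length, Flt4 was far above the other markers. In CTRL it stood at 76.9 ± 5.30 RPKM (CPM per kilobase of exon, SD, n = 3), followed by Mmrn1 at 3.71 ± 1.39 RPKM, Ccl21a at 2.74 ± 0.896 RPKM, Prox1 at 1.07 ± 0.117 RPKM, Reln at 0.637 ± 0.167 RPKM, Lyve1 at 0.426 ± 0.0959 RPKM and Pdpn at 0.103 ± 0.0911 RPKM. The CTRL ranges of Mmrn1 and Ccl21a overlapped, as did those of Reln and Lyve1, and the other neighbours in this order did not. In RbpjΔEC, Mmrn1 stood at 1.66 ± 0.404 RPKM and Ccl21a at 0.985 ± 0.322 RPKM, and their ranges overlapped, as did those of Ccl21a and Prox1 (1.21 ± 0.0573 RPKM), whereas those of Reln and Lyve1 did not. By mean CPM, Flt4 ranked 174th of the 18438 genes tested and Lyve1 14444th. All 7 markers had counts in CTRL, but Pdpn was near the limit of detection, and the defining factor Prox1 ranked 8893rd.

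Of the 7 members, 6 passed the filter on low counts and could be tested. By edgeR's quasi-likelihood test, 0 of the 6 passed an adjusted p of 0.05 in either direction, where 1.13% of all genes tested did, 0.559% lower and 0.575% higher. Before adjustment, 4 of the 6 were lower in RbpjΔEC at p under 0.05 (Ccl21a, Lyve1, Mmrn1 and Reln) and 0 were higher, against 8.62% and 8.88% of all genes tested. DESeq2, run on all genes with a count, called 2 members lower, Ccl21a and Reln, where it called 0.84% of all genes lower. Every RbpjΔEC library was below every CTRL library in CPM for 3 tested members, against 11.6% of all genes tested, and above it for 1, Prox1, against 11.4%. The median log2 fold change of the 6 was -0.94, against 0.01 over all genes tested. The members, and all gene lists below, were chosen with earlier results of these data known. The shares set beside them are therefore a description and not a test of the set.

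**Figure D1:**
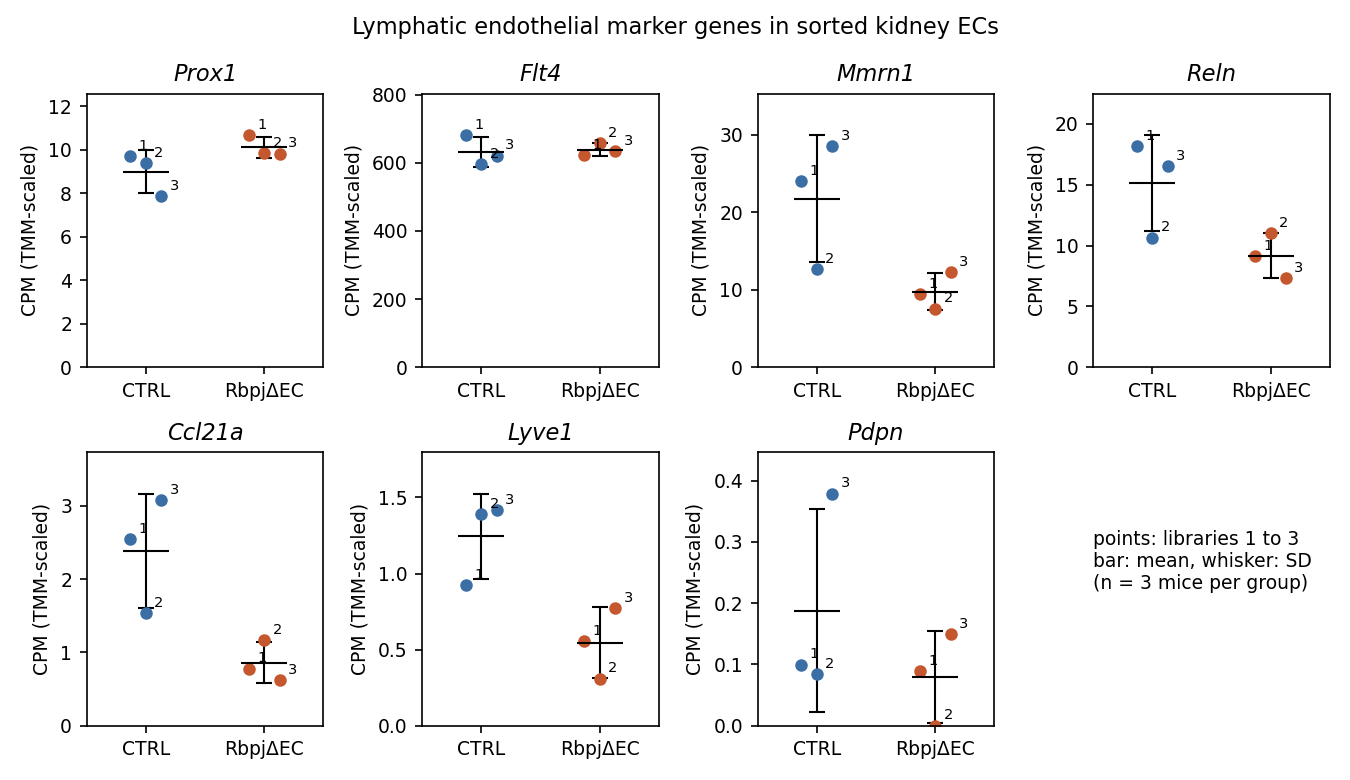
CPM (TMM-scaled, linear axes from 0) of each marker in the 3 CTRL (blue) and 3 RbpjΔEC (orange) libraries, numbered 1 to 3, with the mean (bar) and SD (whisker). Flt4 and Prox1 lie near the same level in both groups, whereas all RbpjΔEC points of Mmrn1, Ccl21a and Lyve1 lie below all CTRL points.

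Prox1, the factor that gives lymphatic ECs their identity (ENSMUSG00000010175.13, chr1:190118035-190170714, minus strand), had 390, 445 and 333 counts in the CTRL libraries and 479, 414 and 394 in the RbpjΔEC libraries, here and throughout in the order of libraries 1, 2 and 3. On the CPM scale these were 9.72, 9.39 and 7.88 in CTRL and 10.7, 9.86 and 9.82 in RbpjΔEC. The lowest RbpjΔEC library was just above the highest CTRL library. The log2 fold change was 0.17 (SE 0.13, 95% interval -0.12 to 0.46), and the edgeR adjusted p was 0.542. An antisense gene, Prox1os, shares 133 exonic bases with Prox1 and had at most 3 counts in any library.

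Flt4, the VEGFC receptor (ENSMUSG00000020357.3, chr11:49609263-49652739, plus strand), had 27337, 28259 and 26258 counts in CTRL and 27983, 27658 and 25484 in RbpjΔEC. Its CPM was 681.2, 596.4 and 621.2 in CTRL and 623.6, 658.7 and 635.4 in RbpjΔEC, so the groups overlapped throughout. The log2 fold change was 0.01 (SE 0.07, 95% interval -0.15 to 0.17, edgeR adjusted p = 0.942). With TMM scaling the interval runs from 0.904 to 1.13 times the CTRL level, the narrowest of the 6.

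Mmrn1, a secreted protein gene (ENSMUSG00000054641.10, chr6:60924976-60989378, plus strand) had 965, 602 and 1208 counts in CTRL and 425, 317 and 492 in RbpjΔEC. In CPM these were 24.0, 12.7 and 28.6 against 9.47, 7.55 and 12.3. All 3 RbpjΔEC values lay below the CTRL values, although RbpjΔEC 3 was close to CTRL 2, the lowest of its group. The log2 fold change was -1.16 (SE 0.34), a level 0.449 times that of CTRL (95% interval 0.250 to 0.805), with an adjusted p of 0.175 by edgeR's quasi-likelihood test. Mmrn1 varied between CTRL mice by a coefficient of variation of 37.5%, against 3.29% from counting alone.

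Reln (ENSMUSG00000042453.14, chr5:21884454-22344702, minus strand) had 730, 505 and 698 counts in CTRL and 411, 464 and 294 in RbpjΔEC. Its CPM was 18.2, 10.7 and 16.5 in CTRL and 9.16, 11.1 and 7.33 in RbpjΔEC. The groups overlapped at 1 point, RbpjΔEC 2 being slightly above CTRL 2. The log2 fold change was -0.72 (SE 0.21, 95% interval -1.20 to -0.24), a level 0.608 times that of CTRL (edgeR adjusted p = 0.133). The antisense gene Gm10475 shares 246 exonic bases with Reln and had 7 counts in CTRL 1 and 0 elsewhere.

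Ccl21a, the chemokine of lymphatic vessels (ENSMUSG00000094686.1, chr4:42772860-42773993, minus strand), had the most negative fold change of the members. It had 102, 73 and 130 counts in CTRL and 35, 49 and 25 in RbpjΔEC, that is 2.54, 1.54 and 3.08 CPM against 0.780, 1.17 and 0.623 CPM. The highest RbpjΔEC library was below the lowest CTRL library. Its log2 fold change was -1.47 (SE 0.35, 95% interval -2.24 to -0.70), a level 0.361 times that of CTRL (interval 0.211 to 0.616), with an adjusted p of 0.0703 by edgeR's quasi-likelihood test. Among all 18438 genes tested it ranked 202nd from the most negative fold change, with Lyve1 352nd, Mmrn1 367th and Reln 883rd.

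The value of Ccl21a is uncertain in one respect, because the mouse genome holds near-identical copies of this gene. Of the 833 windows of 38 bases (the read length) in its exons, 642 (77.1%) also occur in at least 1 of Ccl21d, Gm13304, Ccl21b and Gm10591, and 191 occur in Ccl21a only. The copies Ccl21b, Ccl21d, Gm13304 and Gm10591 each had 0 counts in all 6 libraries. Ccl19, which encodes the other CCR7 ligand, also had 0 counts in all 6. How reads that fit several copies were counted is not given in the sources used here, so the counts printed under Ccl21a may be a part of the reads from the whole group. For the other members at most 1.14% of such windows were shared with another gene.

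Lyve1, the hyaluronan receptor (ENSMUSG00000030787.4, chr7:110850607-110863239, minus strand), was low, with 37, 66 and 60 counts in CTRL and 25, 13 and 31 in RbpjΔEC. Its CPM was 0.922, 1.39 and 1.42 in CTRL and 0.557, 0.310 and 0.773 in RbpjΔEC. No RbpjΔEC library reached the lowest CTRL library. The log2 fold change was -1.19 (SE 0.41, 95% interval -2.08 to -0.30, edgeR adjusted p = 0.162). Counting alone gives a coefficient of variation of 13.6% in CTRL and 20.9% in RbpjΔEC, and the observed ones were 22.5% and 42.4%.

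Pdpn, the membrane mucin (ENSMUSG00000028583.14, chr4:143267431-143299564, minus strand), had 4, 4 and 16 counts in CTRL and 4, 0 and 6 in RbpjΔEC. It stood at 0.188 ± 0.166 CPM and 0.0796 ± 0.0753 CPM (SD, n = 3). A count of 3, the upper limit that a count of 0 allows, corresponds to 0.0629 to 0.0757 CPM in these libraries. Pdpn did not pass the filter, and its difference of -0.108 CPM had p = 0.5 in a two-sided exact permutation test, in which 3 against 3 libraries cannot go below 0.1. The test could thus not pass the threshold with this number of libraries, and Pdpn is given as values only.

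Summed over the 7 members the CPM was 682.6 ± 52.4 in CTRL and 669.8 ± 17.4 in RbpjΔEC, a sum made up almost wholly of Flt4. Without Flt4 it was 55.5, 35.8 and 57.8 in CTRL and 30.7, 29.9 and 31.0 in RbpjΔEC, a log2 ratio of -0.70. For Lyve1, Mmrn1, Ccl21a and Reln together, the 4 members with negative fold changes, it was 40.5 ± 12.5 against 20.3 ± 0.563 CPM, a log2 ratio of -0.99. The RbpjΔEC libraries lay close together in this sum, and the CTRL libraries spread, with CTRL 2 at 26.3 CPM and the others at 45.7 and 49.6 CPM. These sums are descriptions and have no test.

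Set against Prox1 in the same library, which removes the scaling between libraries, Mmrn1 had 2.47, 1.35 and 3.63 counts per Prox1 count in CTRL and 0.887, 0.766 and 1.25 in RbpjΔEC. Ccl21a had 0.262, 0.164 and 0.390 against 0.0731, 0.118 and 0.0635, and Lyve1 had 0.0949, 0.148 and 0.180 against 0.0522, 0.0314 and 0.0787. For Reln the ratios were 1.87, 1.13 and 2.10 against 0.858, 1.12 and 0.746, so the group ranges were set apart only narrowly. The groups did not overlap for any of these 4 ratios, and over all other genes tested 22.2% lay below without overlap per Prox1 count and 3.88% above. These shares are unlike those for CPM, and Prox1 itself was higher in all 3 RbpjΔEC libraries. Flt4 per Prox1 count was 70.1, 63.5 and 78.9 in CTRL and 58.4, 66.8 and 64.7 in RbpjΔEC, with overlap. A ratio of this kind shows unequal levels of the 2 genes and does not show which of them differed.

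**Figure D2:**
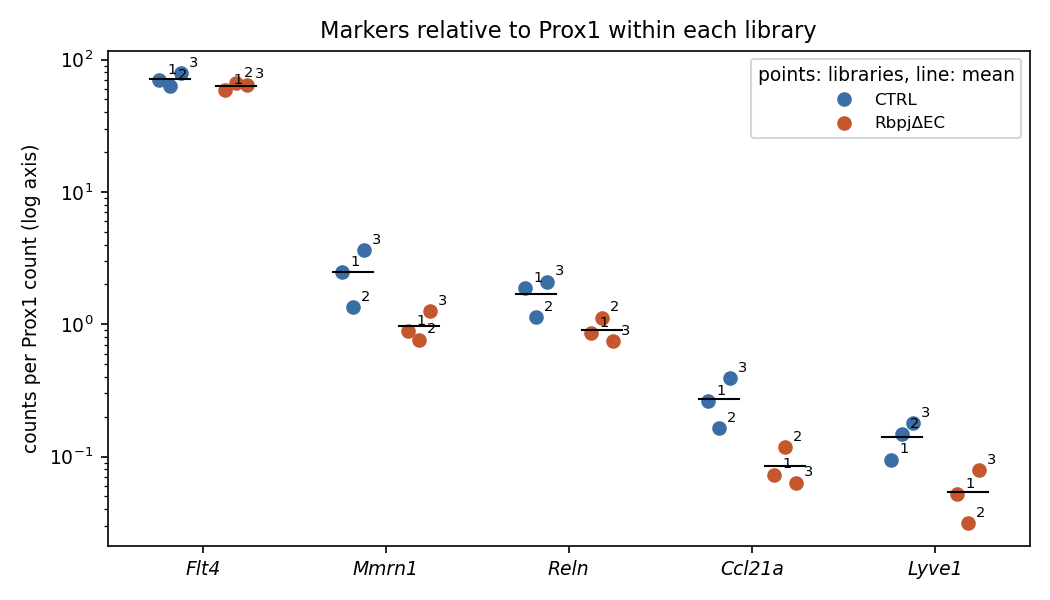
Counts of Flt4, Mmrn1, Reln, Ccl21a and Lyve1 per Prox1 count in each library (log axis), CTRL in blue and RbpjΔEC in orange, numbered by library, with the group mean as a line. The groups overlap for Flt4 and do not for the other 4, where 22.2% of all other genes tested lie below without overlap, and the gap is narrowest for Reln (1.13 in CTRL 2 and 1.12 in RbpjΔEC 2).

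The calls depended on single libraries. With CTRL 2 left out, 3 members passed the threshold: Ccl21a at a log2 fold change of -1.72 (adjusted p = 0.0287), Mmrn1 at -1.44 (adjusted p = 0.00975) and Reln at -0.92 (adjusted p = 0.0196), all by edgeR's quasi-likelihood test, where 1.56% of all genes tested were called lower. With any 1 of the other 5 libraries left out, 0 members passed, and of all genes tested 0.068% to 0.195% were called lower without CTRL 1, CTRL 3, RbpjΔEC 1 or RbpjΔEC 2, and 1.74% without RbpjΔEC 3. Over the 6 fits the log2 fold change ran from -1.76 to -1.25 for Ccl21a, from -1.51 to -0.91 for Lyve1, from -1.44 to -0.91 for Mmrn1 and from -0.92 to -0.57 for Reln, so the direction of these 4 held in each fit. Prox1 ran from 0.08 to 0.22, and Flt4 from -0.03 to 0.07, on both sides of 0. Lyve1 passed in none of the 6, with edgeR adjusted p from 0.102 to 0.377.

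**Figure D3:**
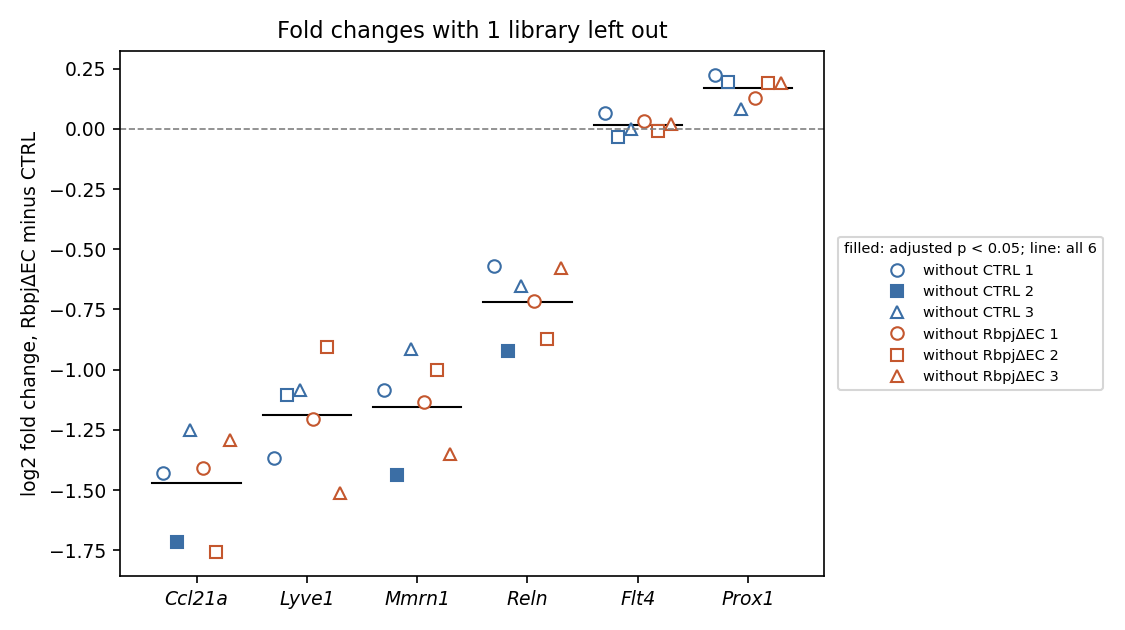
Log2 fold change (RbpjΔEC minus CTRL, edgeR) of the 6 tested markers with each of the 6 libraries left out in turn, the symbol naming the library left out, and the value from all 6 libraries as a line. The filled symbols, with an adjusted p under 0.05, are Ccl21a, Mmrn1 and Reln without CTRL 2.

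Scaling to a list of 10 pan-endothelial genes in place of TMM moved the median log2 fold change over all genes to 0.22. On that scale Ccl21a was at -1.24 (edgeR adjusted p = 0.0433), Lyve1 at -0.97, Mmrn1 at -0.92 and Reln at -0.49. Prox1 was at 0.38 (adjusted p = 0.0929) and Flt4 at 0.23 (adjusted p = 0.0748), close to the median of all genes in the same edgeR fit. With this scaling 0.613% of all genes tested were called lower and 10.2% higher.

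Other genes of the lymphatic programme were read from 5 lists of 33 genes, of which 29 were tested. By edgeR 0 were called at the adjusted threshold. At an unadjusted p under 0.05, 6 were lower (Sox18, Vegfc, Calcrl, Thy1, Fgl2 and Stab2) and 0 higher, against 8.62% and 8.88% of all genes tested, and the median log2 fold change was -0.14. Among 7 lymphatic fate transcription factors, 1 was lower at an unadjusted p under 0.05: Sox18, which switches on Prox1 in the embryo, stood at 255.7 ± 34.8 CPM in CTRL and 215.2 ± 24.5 CPM in RbpjΔEC (log2 fold change -0.25, edgeR adjusted p = 0.274). The next in order of p was Tbx1 (-0.70, edgeR adjusted p = 0.310). With the pan-endothelial scaling Sox18 was at -0.025 (edgeR adjusted p = 0.882) and Tbx1 at -0.49 (edgeR adjusted p = 0.35). Of 5 tested growth factor genes, Vegfc, the ligand of Flt4, stood at 17.2 ± 0.465 against 10.8 ± 3.01 CPM, with no overlap (log2 fold change -0.66, edgeR adjusted p = 0.0858). Adm, which encodes adrenomedullin, had a value of 0.64 (edgeR adjusted p = 0.424) that rested on 1 library, RbpjΔEC 2 at 17.8 CPM, and was 0.13 without it.

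Of 5 receptors and co-receptors, the adrenomedullin receptor gene Calcrl had a log2 fold change of -0.18 (edgeR adjusted p = 0.276) and the integrin gene Itga9 one of -0.16 (edgeR adjusted p = 0.331). With the pan-endothelial scaling both had the opposite sign, at 0.04 and 0.06. Of 9 tested genes enriched in lymphatic endothelium, Stab2, a second hyaluronan receptor also made by sinusoidal ECs, had 373, 216 and 433 counts in CTRL and 169, 128 and 155 in RbpjΔEC. It did not overlap between the groups, at 8.03 ± 3.05 against 3.56 ± 0.445 CPM (log2 fold change -1.17, edgeR adjusted p = 0.0761). Fgl2 stood at 1.46 ± 0.303 against 0.620 ± 0.333 CPM (-1.23, edgeR adjusted p = 0.158). Thy1, chosen after its values were seen, was at -1.18 (edgeR adjusted p = 0.280). Among receptors and partners of the marker proteins, Clec1b, which encodes the platelet receptor of podoplanin, was at 0.20 (edgeR adjusted p = 0.749) and the reelin receptor gene Lrp8 at -0.19 (edgeR adjusted p = 0.774). Ccr7, which encodes the CCL21 receptor and belongs to the same list, had 3 to 6 counts in each CTRL library and 0 in each RbpjΔEC library, below the filter.

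**Figure D4:**
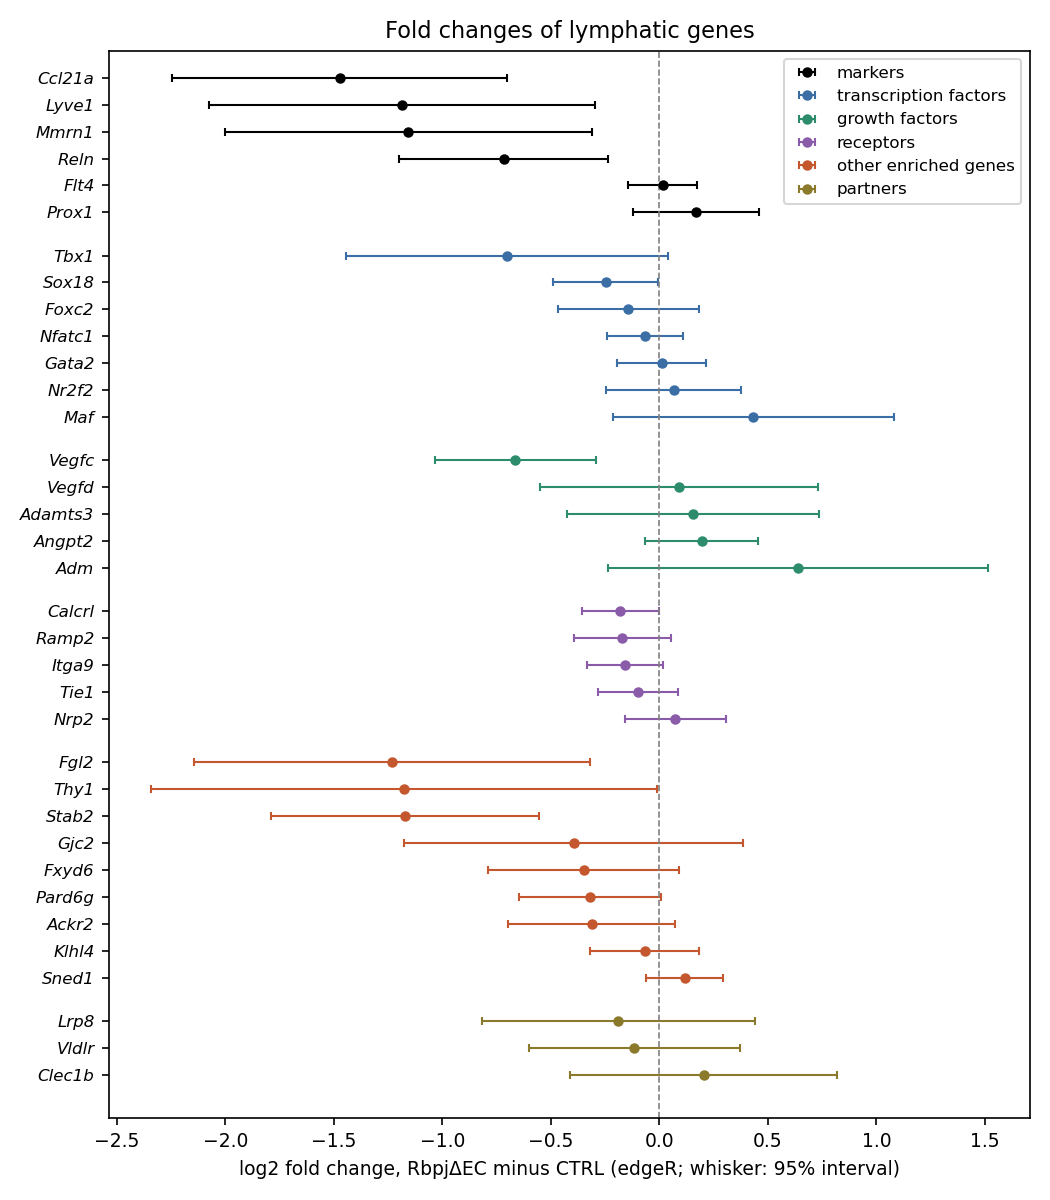
Log2 fold change (RbpjΔEC minus CTRL, edgeR) with its 95% interval for the 6 tested markers and the 29 tested genes of 5 further lymphatic lists, coloured by list. Of the markers, Ccl21a, Lyve1, Mmrn1 and Reln have intervals wholly below 0 and Flt4 and Prox1 span it, and of the other lists Sox18, Vegfc, Calcrl, Thy1, Fgl2 and Stab2 lie below it.

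Markers of other cells were counted in the same libraries, since most of the 7 genes are also made elsewhere. The CD31+ CD45- sort is meant to remove macrophages, which bear CD45, and podocytes, mesothelium and stroma, which lack CD31. The mural list (smooth muscle and pericytes) summed to 85.3 to 111.9 CPM in the CTRL libraries and to 35.1 to 56.8 CPM in the RbpjΔEC libraries. All 8 of its tested genes had negative log2 fold changes, with a median of -1.12, beside -0.94 for the 6 tested members. At an unadjusted edgeR p under 0.05, 7 of the 8 were lower, against 8.62% of all genes tested. In CPM 7 were lower without overlap, against 11.6% of all genes tested. At the adjusted threshold 3 were called lower, where 0.559% of all genes tested were. These were Acta2 (log2 fold change -1.30, edgeR adjusted p = 0.0369), Myh11 (-1.08, edgeR adjusted p = 0.0468) and Rgs5 (-0.88, edgeR adjusted p = 0.0468). The fibroblast list summed to 4.16 to 6.40 CPM in CTRL and 1.24 to 2.57 CPM in RbpjΔEC. Its 2 tested genes had negative values, and 1 was called lower, where 0.559% of all genes tested were. That was Pdgfra (-1.67, edgeR adjusted p = 0.0468), with Col1a2 at -1.83 (edgeR adjusted p = 0.0622). The podocyte list summed to 3227 to 3598 CPM in CTRL and 2647 to 2931 CPM in RbpjΔEC with 0 of 6 genes called, and nearly all of that sum is Podxl, which ECs also make (-0.35, edgeR adjusted p = 0.0678), with Synpo at 0.07. The part of these cells in the marker values was not tested.

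Of 5 tested macrophage genes, 1 was called higher, 1 lower and 3 neither, where 0.575% and 0.559% of all genes tested were called higher and lower. The median log2 fold change of the 5 was -1.44. Cd68, a lysosomal protein gene, rose (log2 fold change 1.27, edgeR adjusted p = 0.0154) and Mrc1, a mannose receptor gene also made by some ECs, fell (-1.56, edgeR adjusted p = 0.0261). Csf1r (-1.57, edgeR adjusted p = 0.134), Ptprc (-1.44, edgeR adjusted p = 0.188) and C1qa (-0.21, edgeR adjusted p = 0.914) had negative values. The whole list summed to 19.0 to 24.5 CPM in CTRL and 25.7 to 31.3 CPM in RbpjΔEC. Without Cd68, a sum taken after the values were seen, it was 6.69 to 17.6 CPM in CTRL and 3.45 to 6.23 CPM in RbpjΔEC. The defining macrophage gene Adgre1 had 17, 1 and 13 counts in CTRL and 0, 9 and 2 in RbpjΔEC, and Cd163 had at most 6 in any library. Leaving out 1 library ended each of these calls: that of Acta2 and Myh11 without CTRL 1, CTRL 3 or RbpjΔEC 1, that of Rgs5 without CTRL 1, CTRL 2, RbpjΔEC 1 or RbpjΔEC 2, that of Pdgfra and Mrc1 without CTRL 1, CTRL 3, RbpjΔEC 1 or RbpjΔEC 2, and that of Cd68 without CTRL 3, RbpjΔEC 1 or RbpjΔEC 2. The highest edgeR adjusted p was then 0.154 for Acta2, 0.172 for Myh11, 0.186 for Rgs5 and for Pdgfra, 0.137 for Mrc1 and 0.0917 for Cd68. The call of Rgs5 was also lost with scaling by library size alone (edgeR adjusted p = 0.0553), and those of Rgs5 and Myh11 with a minimum of 1 CPM (0.0523 and 0.0506).

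The platelet and megakaryocyte list, which bears on Mmrn1, summed to 4.94 to 9.02 CPM in CTRL and 5.64 to 7.21 CPM in RbpjΔEC, with 0 of 4 tested genes called (Itga2b at a log2 fold change of 0.08 and Ppbp at -0.34). For reticular stroma of lymphoid tissue, which bears on Ccl21a and Pdpn, Cxcl13 had 1 count in each of CTRL 1 and CTRL 3 and 0 in the other 4 libraries, and Madcam1 had 5 counts in CTRL 1, 1 in RbpjΔEC 1 and 0 elsewhere. Of that list only Il7 was tested (0.82, edgeR adjusted p = 0.345), and Cr2 had 67 counts in CTRL 1 and 2 to 12 in the others. Mesothelial genes, which bear on Pdpn, summed to at most 0.201 CPM in any library. B cell genes summed to at most 0.822 CPM, with Cd79a at 0.12 and edgeR adjusted p = 0.931, and T cell genes to at most 0.150 CPM. The tubule list summed to 267.6 to 409.1 CPM in CTRL and 95.6 to 360.1 CPM in RbpjΔEC with 0 of 6 genes called (Slc12a3 at -1.79, or -3.02 without RbpjΔEC 3, and Slc12a1 at -1.25). In the same list Lrp2 was at 1.27 and Slc34a1 at 1.28, with RbpjΔEC 3 far above the other libraries at 129.1 and 73.5 CPM. The pan-endothelial list summed to 20914 to 22949 CPM in CTRL and 18919 to 19182 CPM in RbpjΔEC, the median of their log2 fold changes was -0.18, and 0 of 10 were called (Kdr at -0.27 and Flt1 at -0.24).

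**Figure D5:**
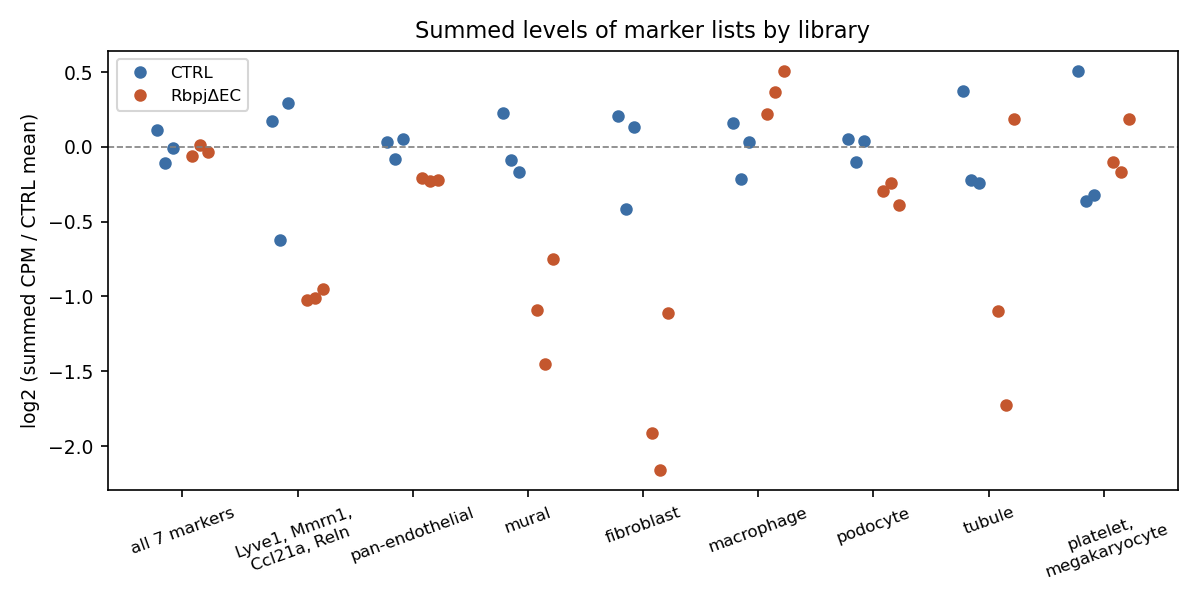
Log2 of the summed CPM of each marker list over the CTRL mean, by library, CTRL in blue and RbpjΔEC in orange. The sum of all 7 markers overlaps between the groups, whereas that of Lyve1, Mmrn1, Ccl21a and Reln is lower because these 4 were picked for their negative fold changes. The mural, fibroblast, pan-endothelial and podocyte lists lie lower in all 3 RbpjΔEC libraries than in all 3 CTRL libraries, the macrophage list lies higher with Cd68 in it (without Cd68 it sums to 6.69 to 17.6 CPM in CTRL and 3.45 to 6.23 CPM in RbpjΔEC), and the platelet and tubule lists overlap.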

How the data were processed

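Bulk RNA of sorted kidney ECs was sequenced from 3 CTRL and 3 RbpjΔEC mice with a stranded low-input total RNA kit. Per the labels and the study's methods, the authors trimmed reads with Trim Galore 0.6.4, aligned them to mm10/GRCm38.p6 with STAR 2.6.1d and deposited raw counts per gene from featureCounts (Subread 1.6.4). The strand and multi-mapping settings of the counting are not given in the sources used here. The 7 members and all lists were chosen with earlier results of these data known.

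Counts were tested with edgeR 4.0.16 in R 4.3.3 (limma 3.58.1), using filterByExpr (minimum count 10, 18438 genes kept), TMM, glmQLFit and glmQLFTest with robust estimation, and Benjamini-Hochberg adjustment over all genes kept, two-sided, at 0.05. The procedure was tested on simulated data. CPM are counts per 1000000 of the TMM-scaled library size, and fold changes are log2. RPKM divide CPM by exonic length. Member coordinates and lengths come from GENCODE M21 (GRCm38), whereas the authors' annotation was a later release. DESeq2, the study's tool, was an alternative, run here in version 1.42.0 with independent filtering and outlier filtering off. With 1 library per mouse, p-values measure the spread between 3 mice a group. A count of 0 allows up to 3 counts. Intervals and this limit cover counting error only where they rest on counts of 1 library.

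Named were all members, copies of Ccl21a with a count (none had one, so those at 0 are given), the 2 genes of smallest p per further lymphatic list and any called, the 2 highest genes and any called per list of other cells, and the 5 genes most like the members. Other genes named beside them (Thy1, Ccr7, Csf1r, Ptprc, C1qa, Lrp2, Slc34a1, Adgre1, Cd163, Cxcl13, Madcam1, Cr2, Hey1) were chosen after their values were seen or as defining markers. Alternatives were other scalings, filters, DESeq2, a replicate block and leaving out each library.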

Additional observations from a re-analysis of the deposited data

How the results depend on the processing

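The 209 genes called over the whole table of 18438 tested became 1436 of 38324 without the filter on low counts, 584 of 38324 with DESeq2, 344 of 18438 with the replicate block, and 21 to 700 with 1 library left out. With DESeq2 on the genes kept by the filter, an alternative chosen after seeing the data, there were 944 of 18438. Called lower were 0.559% of genes in the analysis reported, 1.88% without the filter, 0.84% with DESeq2, 2.77% with DESeq2 on the kept genes and 0.965% with the block, against which the counts that follow are to be read. The members called went from 0 to 2 without the filter (Ccl21a and Reln, adjusted p = 0.00162 and 7.68e-05), to 2 with either DESeq2 fit (the same names) and to 1 with the replicate block (Mmrn1, adjusted p = 0.00285), and ran from 0 to 3 with 1 library left out. Of the other lymphatic genes, 3 were called without the filter (Sox18, Stab2 and Vegfc), 2 with either DESeq2 fit or with the block (Stab2 and Vegfc), and 0 to 1 with 1 library left out. The pan-endothelial scaling called Stab2 lower and Angpt2 higher. Over all alternatives the edgeR or DESeq2 adjusted p ran from 0.00162 to 0.249 for Ccl21a, 7.68e-05 to 0.36 for Reln, 0.00285 to 0.425 for Mmrn1 and 0.102 to 0.377 for Lyve1, and each of the 4 stayed below 0 in log2 fold change. Scaling by library size alone called 81 genes lower and 159 higher, against 103 and 106. The number of members below the filter was 0 without it and with DESeq2, and 2 with a minimum of 1 CPM. The summed CPM of the members had a log2 ratio of -0.70 without Flt4 and -0.70 without Flt4 and Pdpn. Signs turned for Flt4 (-0.033 to 0.066 with 1 library left out, -0.0014 without CTRL 3 and -0.0073 without RbpjΔEC 2), for Calcrl, Itga9 and Lrp8 with the pan-endothelial scaling (0.040, 0.058 and 0.022), for Synpo without RbpjΔEC 1 (-0.014, up to 0.13 with another library left out), Itga2b without CTRL 3 (-0.038, up to 0.26), Ppbp without CTRL 1 (0.17, down to -0.95) and Cd79a without RbpjΔEC 3 (-0.23, up to 0.28). The cause was not tested for any of these.

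The groups share replicate numbers, but the labels give no shared litter or day per number, and the deviations of same-numbered libraries correlated at 0.0231, 0.0092 and 0.0054. No library correlated best with its own number, so the libraries share only a number. The replicate block called 344 genes in place of 209. Depth limits Pdpn most, at 0 to 16 counts, then Lyve1 at 13 to 66 counts.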

Other observations

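The 5 genes whose level over the 6 libraries was most like the mean of the standardised log2 CPM of the 6 tested members were Selenoh (Pearson r = 0.995), Bzw1 (0.993), Shisa5 (0.992), Cnih1 (0.988) and Arl3 (0.988), out of 14122 genes with a mean of at least 1 CPM. With 6 libraries and so many candidates, values of this size are a description. Selenoh, a selenoprotein gene, stood at 6.54 ± 0.921 CPM in CTRL and 5.34 ± 0.0721 CPM in RbpjΔEC (log2 fold change -0.29, edgeR quasi-likelihood adjusted p = 0.394), and 0 of the 5 were called.

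Between members, log2 CPM over the 6 libraries correlated at a Pearson r of 0.959 for Ccl21a and Reln, 0.803 for Mmrn1 and Ccl21a, 0.758 for Mmrn1 and Reln and 0.767 for Lyve1 and Mmrn1. Lower values were found for Lyve1 and Ccl21a, at 0.553, and for Lyve1 and Reln, at 0.368. Prox1 correlated with them at -0.564 to -0.736, and Flt4 at -0.484 to 0.385. The libraries of both groups enter these values, so the difference between groups is part of them.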
